A study of Mus musculus with 20 samples.

Results

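Myc and 39 nucleolar, ribosome assembly and growth genes were followed across 20 mouse Illumina expression arrays. The 40 genes were taken from a list by symbol; 39 had a probe, 67 probes in all, and each gene was represented by its brightest probe. Of these, 34 were above background on at least 2 arrays and were tested among 12667 genes. Fbl, the fibrillarin gene, had no probe. Mycn, Dkc1, Nop16, Utp20 and Wdr12 were above background on no array and gave no comparison. The labels gave 4 arrays of grafted thymus at 10 weeks, called autonomous thymus, and 7 of T cell acute lymphoblastic leukaemia (T-ALL), all of the cross F1(WB x B6/Ly5.1). A further 3 arrays were labelled T-ALL Rag-, a mark the labels do not explain. Total thymocytes (n = 2) and total splenocytes (n = 2) were labelled wild-type C57BL/6, and total splenocytes of WB hosts (n = 2) completed the set. The T-ALL were marked as re-analysed, and no label said whether arrays of 1 group were separate mice, so the tests measure only the spread between these arrays.

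Myc is a transcription factor that drives cell growth, and genes for making ribosomes are among its best known targets. Ribosomal RNA is transcribed by RNA polymerase I in the nucleolus, modified by small nucleolar ribonucleoproteins (RNPs), and folded into small and large subunits by assembly factors. In the thymus Myc is high in dividing immature thymocytes and low in resting double-positive thymocytes, and in T-ALL it is a frequent target of Notch signalling.

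Myc and its partner Max bind the palindrome CACGTG, called an E-box, so promoter windows of the members were searched for these 6 letters, which read the same on both strands. Windows ran from 250 bases before to 50 after the gene start (RefSeq, build GRCm38.p6), and 33 of the 40 members matched the table. The letters occurred in 5 of these 33 (15.2%), against 2187 of 27025 genes of the table (8.09%). In Nop2, a ribosomal RNA methyltransferase, the first base of the motif was at position -60 from the start, and in Eif4a1, the RNA helicase of translation initiation, at -189. In Pes1, Wdr43 and Utp20 the motif lay after the start. The windows around the upstream motifs are shown because they hold the letters associated with Myc; capitals mark the motif, and the strand is that of the gene, chr6:125131783-125131868 on the plus strand for Nop2 and chr11:69672567-69672652 on the minus strand for Eif4a1.
Nop2: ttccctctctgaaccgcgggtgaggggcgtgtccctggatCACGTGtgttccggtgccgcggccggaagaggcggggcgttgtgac
Eif4a1: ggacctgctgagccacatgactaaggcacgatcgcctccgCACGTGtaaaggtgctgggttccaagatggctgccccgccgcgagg
The match is a description of letters, and no binding was measured here.

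Values were log2 intensities that the authors had normalized so that every array had the same median, 6.95. A probe counted as above background over 7.12. A gene is said to have risen or fallen only where the limma p adjusted over all genes tested was below 0.05. Several arrays did not carry the content their labels name. The array labelled wild-type thymus 1 had a T cell receptor (TCR) list mean of 8.80 and a granulocyte list mean of 14.29. Wild-type thymus 3 had 11.93 and 9.95. The arrays labelled host spleen had TCR means of 12.83 and 12.72 and double-positive thymocyte means of 12.22 and 11.99, close to those of grafts 1 and 4 (12.23 and 12.26). B cell markers averaged between 7.04 and 8.00 on the 4 spleen arrays. The lowest of these, wild-type spleen 3, had a TCR mean of 11.82. Its double-positive thymocyte mean was 11.07, above those of wild-type thymus 1 and 3 (8.27 and 10.39). Labels are therefore used below as names of arrays, and results that rest on them are given array by array. In bulk RNA, fewer cells of a type and less RNA per cell cannot be told apart.

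The members were low in 3 of the 4 grafts and in the host spleens. On average they were higher in T-ALL and highest in T-ALL Rag-, though arrays of these 2 labels overlapped. The module mean, the average log2 level of the 34 tested members on an array, was 9.55 in graft 1, 9.71 in graft 2, 10.73 in graft 3 and 9.49 in graft 4. Across the 7 T-ALL it ran from 10.02 to 10.75 with a median of 10.36, and the Rag- arrays gave 10.77, 10.57 and 10.96. T-ALL 3 and 6, at 10.75 and 10.62, lay above T-ALL Rag- 2. Grafts 1, 2 and 4 lay below every T-ALL, whereas graft 3 lay near the top of the T-ALL range and ranked 4 of the 20 arrays. The group means were 9.58 ± 0.12 (SD, n = 3) for grafts 1, 2 and 4, 9.87 ± 0.58 (n = 4) with graft 3, 10.35 ± 0.27 (n = 7) for T-ALL and 10.77 ± 0.19 (n = 3) for T-ALL Rag-. Host spleens 4 and 5 were at 9.65 and 9.74, the second just above the highest of the low grafts and both below every T-ALL. The wild-type pairs each held a lower and a higher array, 10.03 and 10.67 in thymus and 9.94 and 10.69 in spleen.

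**Figure D1:**
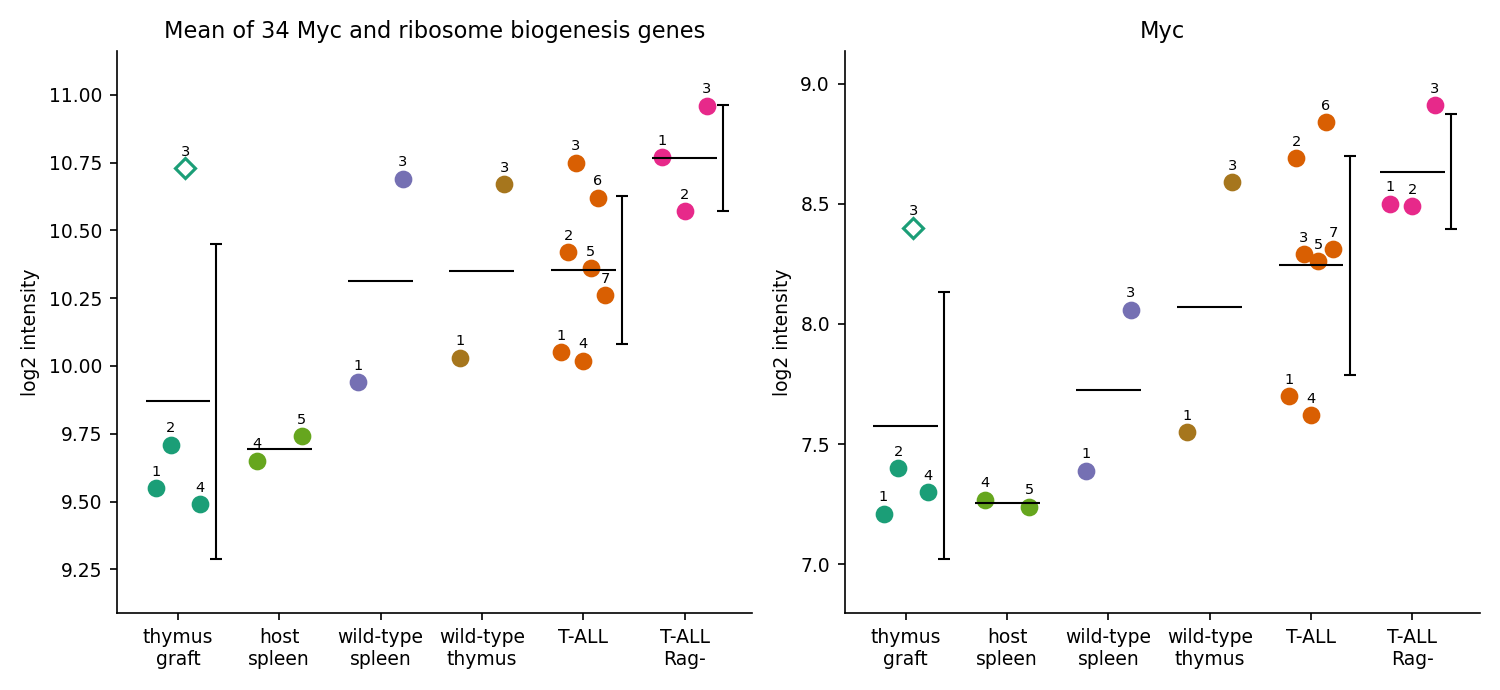
Mean log2 intensity of the 34 tested members (left) and of Myc (right) on each array, by label, with replicate numbers beside the points; horizontal lines are group means, and vertical bars are SD for groups of 3 or more arrays. The open diamond is graft 3, at 10.73 and 8.40, while the other grafts lie between 9.49 and 9.71 for the module and between 7.21 and 7.40 for Myc.

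Graft 3 was above each of the other grafts in 34 of 34 members, against 32.7% of all genes tested. It was more than 2-fold above their mean in 19 members, against 6.57% of genes. The median difference between graft 3 and the mean of grafts 1, 2 and 4 was 1.09 on the log2 scale over the members (0.18 to 2.62) and -0.01 over all genes. The widest gaps were in Srm, the spermidine synthase gene (2.62), Gnl3, which encodes nucleostemin (2.58), Nop58 (2.22) and Cad (2.11). Beside T-ALL, graft 3 fell within the range of the 7 arrays for 25 members and above all of them for 9, against 77.5% and 11.6% of all genes; it was below all of them for 0 members, against 11% of genes. These are counts on 1 array, with no test. They include Rrs1, below background on every graft (6.79, 6.88, 7.02 and 6.86), and Nolc1, above it on graft 3 alone of the grafts (7.13).

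Other contents of graft 3 also differed from grafts 1 and 4. Its erythroid list (8 of 10 genes measured) averaged 11.55 against 7.47 and 7.51 and its macrophage list 10.67 against 6.92 and 7.00. Its cell cycle list averaged 11.45 against 10.55 and 10.40, and its granulocyte list 8.79 against 6.84 and 6.82. The double-positive thymocyte list was lower in graft 3, at 10.64 against 12.23 and 12.26. So were its TCR list, at 11.77 against 12.72 and 12.80, and its B cell list, at 7.31 against 7.40 and 7.43. Xist, the RNA made from the inactive X chromosome, was at 6.75, below background, in graft 3 and between 9.42 and 10.18 in the other grafts. It was between 6.74 and 7.76 on the T-ALL and between 6.76 and 7.00 on the T-ALL Rag- arrays, so grafts 1, 2 and 4 were above all of them, and comparisons without graft 3 run along the same split. Graft 2 had an erythroid mean of 10.79, a macrophage mean of 9.33 and a granulocyte mean of 10.78, yet its module mean was 9.71 and its cell cycle mean 10.40. Its double-positive thymocyte mean was 11.52 and its TCR mean 12.64. The part of these contents and of Xist in the level of graft 3, and in the comparisons without it, was not tested. Counts of members called against the grafts are given both with all 4 and without graft 3.

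Myc itself was at 7.21, 7.40, 8.40 and 7.30 in grafts 1 to 4. In T-ALL it ran from 7.62 to 8.84 with a median of 8.29, and in T-ALL Rag- it was 8.50, 8.49 and 8.91. Grafts 1, 2 and 4 lay below every T-ALL, and graft 3 inside their range. With all grafts, Myc was 1.59-fold higher in T-ALL and missed the threshold (log2 difference 0.67, SE 0.28, limma adjusted p = 0.229). Without graft 3, Myc rose 1.92-fold in T-ALL (0.94, SE 0.27, adjusted p = 0.0388 by limma) and 2.51-fold in T-ALL Rag- (1.33, SE 0.32, adjusted p = 0.0174). With all grafts the T-ALL Rag- difference was 1.06 (limma adjusted p = 0.161). Host spleens were at 7.27 and 7.24, at the level of the low grafts. Wild-type thymus was at 7.55 and 8.59 and wild-type spleen at 7.39 and 8.06, in each pair with the higher value on array 3. Mycn, its paralogue, stayed between 6.59 and 6.89 on all 20 arrays, below background.

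Across the whole list, no member passed in T-ALL against all 4 grafts, where 33 of 34 were higher on average and Ncl differed by 0.00. The limma count was 0 of 34 members, against 0.0947% of all genes tested that rose and 0.229% that fell, and the smallest adjusted p of a member was 0.0857, for Nhp2. At an unadjusted p under 0.05 limma gave 15 members higher, against 7.67% of genes, and 0 lower, against 9.32%. The median member difference was 0.49, against 0.01 over all genes. Without graft 3, 12 members rose and 0 fell, against 3.46% of genes that rose and 5.28% that fell; the median was 0.73 against 0.02, and for 20 members no T-ALL array overlapped a graft, against 6.21% of genes. The same 12 members differed against all 4 grafts by 0.52 to 1.05, with limma adjusted p from 0.0857 to 0.393. Leaving out graft 1 or graft 4 as well, which leaves 2 grafts, took the count from 12 to 0. Chip could be fitted here, because chips 1 and 2 each held 2 grafts and 3 T-ALL. As a fixed term without graft 3 it left 8 members. No share of all genes is set beside these counts of 0 and 8. Genes of the marker lists differed in the same comparison. Without graft 3, limma called 8 of 14 cell cycle genes, 2 of 8 erythroid genes and 2 of 10 macrophage genes higher in T-ALL and 3 of 10 double-positive thymocyte genes and 1 of 6 B cell genes lower, and 0 of 9 TCR complex and 0 of 10 granulocyte genes either way. It called 0 genes of these lists with all 4 grafts. Their part in the members' differences was not tested. On chip 1 alone the median member difference was 0.75, and on chip 2 alone, which held graft 3, it was 0.22.

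T-ALL Rag- were compared with the same grafts, so the 2 comparisons share their controls. With all grafts all 34 members were higher on average with a median of 0.85, but the limma count was again 0, against 0% of all genes that rose and 0.0158% that fell. At an unadjusted p under 0.05 it was 26 higher, against 8.15% of genes, and 0 lower, against 8.22%. Without graft 3, 22 members rose and 0 fell, against 4.01% and 4.87% of genes, with a median of 1.12 against 0.02. Against all 4 grafts those 22 differed by 0.70 to 2.07, with limma adjusted p from 0.127 to 0.285. For 31 members the 3 Rag- arrays lay wholly above grafts 1, 2 and 4, against 18.1% of genes. Rrs1 is counted in the 34, the 26 and the 31. It entered the test only through the Rag- arrays and T-ALL 3, so its direction was set by the filter. Leaving out a further array gave between 5 and 19 members, 5 without graft 1 or without graft 4. The Rag- arrays shared no chip with a graft. Chip as a fixed term, which then links them only through T-ALL 7, gave a median of 1.24 without graft 3 and called 0 members. The counts with a further array left out or with chip fitted have no share of all genes beside them. Marker lists differed here too. Without graft 3, all 8 erythroid genes were higher in T-ALL Rag- (median 3.44, 2 called), as were all 10 macrophage genes (median 1.63, 1 called) and all 14 cell cycle genes (median 0.94, 8 called). All 10 double-positive thymocyte genes were lower (median -1.88, 3 called), and all 9 TCR genes (median -0.71, 1 called). The part of these contents in the members' differences was not tested.

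**Figure D2:**
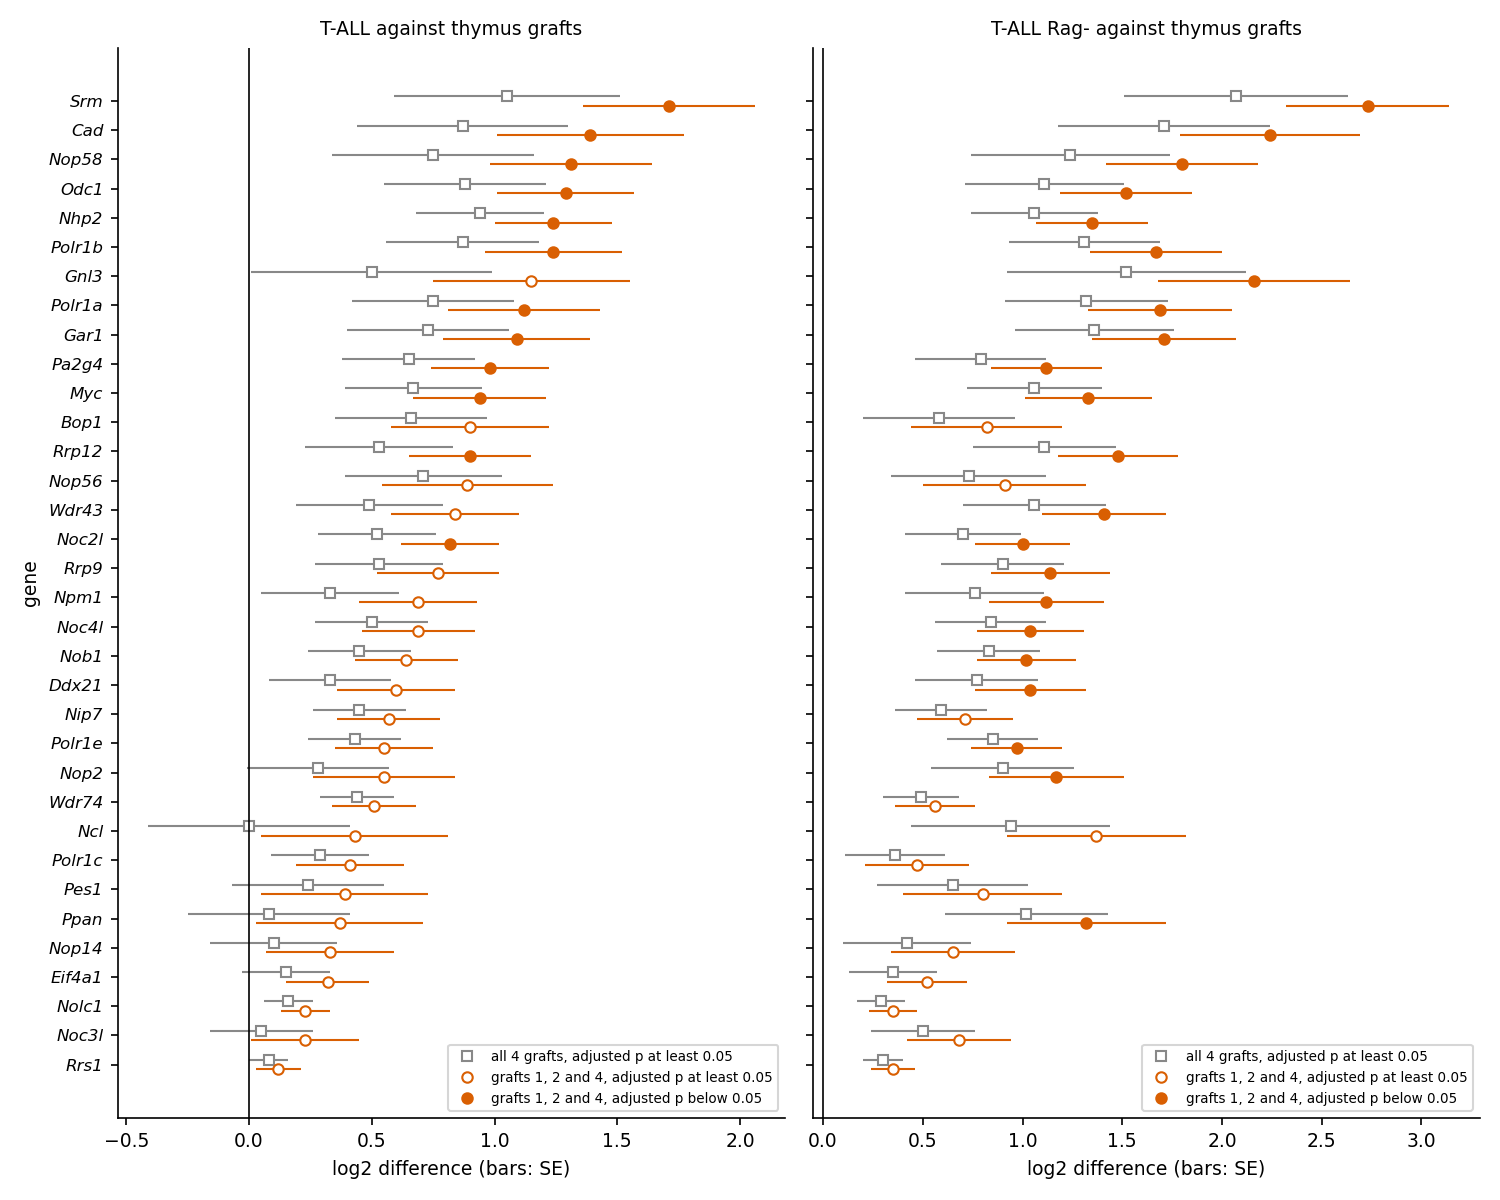
Log2 difference of each tested member in T-ALL (left) and T-ALL Rag- (right) against the grafts, with bars for the SE; grey squares use all 4 grafts, orange circles grafts 1, 2 and 4, and filled points have an adjusted p below 0.05. The circles lie to the right of the squares for each member, and filled points occur only among the circles, 12 on the left and 22 on the right.

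Among the RNA polymerase I genes, Polr1a and Polr1b, which encode the catalytic core, differed most. Polr1a was at 9.31, 9.65, 10.90 and 9.28 in grafts 1 to 4 and ran from 9.72 to 11.13 in T-ALL, with a median of 10.95. The low grafts were all below T-ALL. Without graft 3 it rose 2.18-fold in T-ALL (log2 difference 1.12, SE 0.31, limma adjusted p = 0.0319) and 3.22-fold in T-ALL Rag- (1.69, SE 0.36, adjusted p = 0.0111). With all 4 grafts the differences were 0.75 and 1.32 (limma adjusted p = 0.259 and 0.151). Polr1b was at 7.96, 8.18, 9.47 and 7.88 in the grafts and between 8.70 and 10.07 in T-ALL. Without graft 3 it rose 2.36-fold in T-ALL (limma adjusted p = 0.0123) and 3.19-fold in T-ALL Rag- (adjusted p = 0.00763), with differences of 0.87 and 1.31 against all 4 grafts that missed the threshold (limma adjusted p = 0.158 and 0.144). Polr1e rose in T-ALL Rag- without graft 3 (0.97, limma adjusted p = 0.0177) and was at 0.55 with an adjusted p of 0.0997 in T-ALL. Against all 4 grafts Polr1e differed by 0.85 in T-ALL Rag- and did not pass (limma adjusted p = 0.127). Polr1c, a subunit shared with RNA polymerase III, passed in neither, at 0.41 and 0.47.

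The small nucleolar RNP genes encode proteins of the particles that chemically modify ribosomal RNA. Nop58, a core protein of the box C/D particles, was at 10.44, 11.00, 12.87 and 10.50 in grafts 1 to 4, while T-ALL ran from 11.20 to 12.74 with a median of 11.97. Graft 3 was above all T-ALL, the others below them. Without graft 3, Nop58 rose 2.48-fold in T-ALL (1.31, SE 0.33, limma adjusted p = 0.0205) and 3.47-fold in T-ALL Rag- (1.80, SE 0.38, adjusted p = 0.0111). Against all 4 grafts it differed by 0.75 and 1.24 (limma adjusted p = 0.369 and 0.237). Nhp2 and Gar1 belong to the box H/ACA particles, which make pseudouridine. Nhp2 was at 10.75, 11.86, 12.35 and 10.94 in the grafts and spanned only 12.08 to 12.65 in T-ALL, and it rose 2.35-fold without graft 3 (limma adjusted p = 0.00565). Gar1 was at 11.48, 11.57, 12.88 and 11.34 and between 11.93 and 13.17 in T-ALL, and it rose 2.13-fold (limma adjusted p = 0.0353). In T-ALL Rag- Nhp2 rose 2.55-fold and Gar1 3.28-fold (limma adjusted p = 0.00933 and 0.00983). Against all 4 grafts, Nhp2 differed by 0.94 in T-ALL and Gar1 by 0.73, and neither passed (limma adjusted p = 0.0857 and 0.261). In T-ALL Rag- they differed from all 4 grafts by 1.06 and 1.36, and neither passed (limma adjusted p = 0.146 for each). Nop56, the partner of Nop58, did not pass in either comparison, at 0.89 and 0.91.

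Of the nucleolar scaffold and helicase genes, none passed in T-ALL without graft 3, and Gnl3, Npm1 and Ddx21 rose in T-ALL Rag-. Against all 4 grafts these differed by 1.52, 0.76 and 0.77 in T-ALL Rag- (limma adjusted p = 0.23, 0.285 and 0.236). Gnl3 was at 11.01, 10.60, 13.35 and 10.70 in grafts 1 to 4 and spread from 11.03 to 13.00 in T-ALL, with a median of 11.56. Its SD among T-ALL, 0.83, was the largest of the members tested. The Rag- arrays were at 13.17, 12.84 and 12.78, a 4.47-fold rise over grafts 1, 2 and 4 (2.16, SE 0.48, limma adjusted p = 0.0121), against 1.15 and an adjusted p of 0.0898 for T-ALL, where all 4 grafts gave 0.50. Npm1 (nucleophosmin, a nucleolar chaperone) was at 13.00, 13.44, 14.56 and 12.96 in the grafts and at 14.49, 14.33 and 13.94 in T-ALL Rag-. It rose 2.17-fold and Ddx21 (an RNA helicase) 2.05-fold in T-ALL Rag- (limma adjusted p = 0.0237 and 0.0322). Ncl, the nucleolin gene, was at 9.23, 9.36, 11.03 and 9.29 in the grafts and between 9.15 and 10.99 in T-ALL, with a median of 9.59. These ranges overlapped even without graft 3, and Ncl passed in neither comparison. Nolc1, a chaperone of small nucleolar RNPs, was above background on only 9 arrays, between 6.74 and 7.39.

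Of the small subunit assembly genes, 1 of 6 rose in T-ALL and 5 of 6 in T-ALL Rag- without graft 3, beside 3.46% and 4.01% of all genes; the difference between those counts was not tested. Rrp12, known from yeast as a factor for export of subunit precursors, was at 9.09, 9.74, 10.78 and 9.06 in grafts 1 to 4 and between 9.70 and 10.78 in T-ALL, where graft 2 overlapped the lowest arrays. It rose 1.86-fold in T-ALL and 2.78-fold in T-ALL Rag- (limma adjusted p = 0.0371 and 0.00879), against differences of 0.53 and 1.11 with all 4 grafts (0.393 and 0.165). In T-ALL Rag- without graft 3, Wdr43, Rrp9, Noc4l and Nob1, the nuclease that trims the small subunit RNA, also rose. The log2 differences were 1.41, 1.14, 1.04 and 1.02 (limma adjusted p = 0.0124, 0.0265, 0.0262 and 0.0199). With all 4 grafts they were 1.06, 0.90, 0.84 and 0.83, and none passed (limma adjusted p = 0.178, 0.184, 0.167 and 0.152). Nop14 was the exception, at 0.65 with an adjusted p of 0.211 by limma. Of the large subunit genes, 1 of 9 rose in T-ALL and 3 of 9 in T-ALL Rag- without graft 3, beside the same shares of all genes. Noc2l, an assembly factor of the large subunit, was at 10.53, 10.73, 11.83 and 10.64 in grafts 1 to 4 and between 11.16 and 11.68 in T-ALL, so graft 3 was above every T-ALL and the other grafts below. It rose in both, 1.76-fold and 2.00-fold (limma adjusted p = 0.0193 and 0.0167, or 0.276 and 0.247 with all 4 grafts). Nop2 and Ppan rose in T-ALL Rag- (limma adjusted p = 0.0446 and 0.049, or 0.234 for each with all 4 grafts). Pes1 and Bop1, which act together with Wdr12 in one complex, passed in neither. Rrs1 was above background on only 4 arrays, T-ALL 3 and the Rag- arrays, at most 7.23, and its differences lie at the edge of detection.

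The growth enzymes included the member with the widest difference. Srm, which makes spermidine, was at 8.83, 9.65, 11.73 and 8.84 in grafts 1 to 4, from 10.13 to 11.65 in T-ALL with a median of 10.71, and at 11.86, 11.48 and 12.16 in T-ALL Rag-. Without graft 3 the low grafts lay below every T-ALL, and Srm rose 3.26-fold in T-ALL (1.71, SE 0.35, limma adjusted p = 0.00785) and 6.62-fold in T-ALL Rag- (2.73, SE 0.41, adjusted p = 0.00152). With all 4 grafts the differences were 1.05 (limma adjusted p = 0.253) and 2.07 (0.13). Cad, which starts pyrimidine synthesis, was at 8.16, 8.07, 10.21 and 8.08 in the grafts and between 8.52 and 10.42 in T-ALL, with a median of 9.90. It rose 2.63-fold in T-ALL and 4.71-fold in T-ALL Rag- without graft 3 (limma adjusted p = 0.0309 and 0.00792). With all 4 grafts the differences were 0.87 and 1.71 (limma adjusted p = 0.323 and 0.151). Odc1, the rate-limiting enzyme of polyamine synthesis, was split differently among grafts, at 10.74, 12.00, 12.63 and 10.20, with graft 2 just under the lowest T-ALL at 12.05. It rose 2.45-fold and 2.87-fold without graft 3 (limma adjusted p = 0.0109 and 0.0115), and differed by 0.88 and 1.11 with it (0.178 and 0.199). Pa2g4, a growth regulator that binds ribosomes, was at 10.83, 11.08, 12.04 and 10.25 in grafts 1 to 4 and between 11.26 and 12.20 in T-ALL. It rose 1.97-fold and 2.17-fold without graft 3 (limma adjusted p = 0.0187 and 0.0222; with all 4 grafts 0.236 and 0.254), and Eif4a1 passed in neither.

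**Figure D3:**
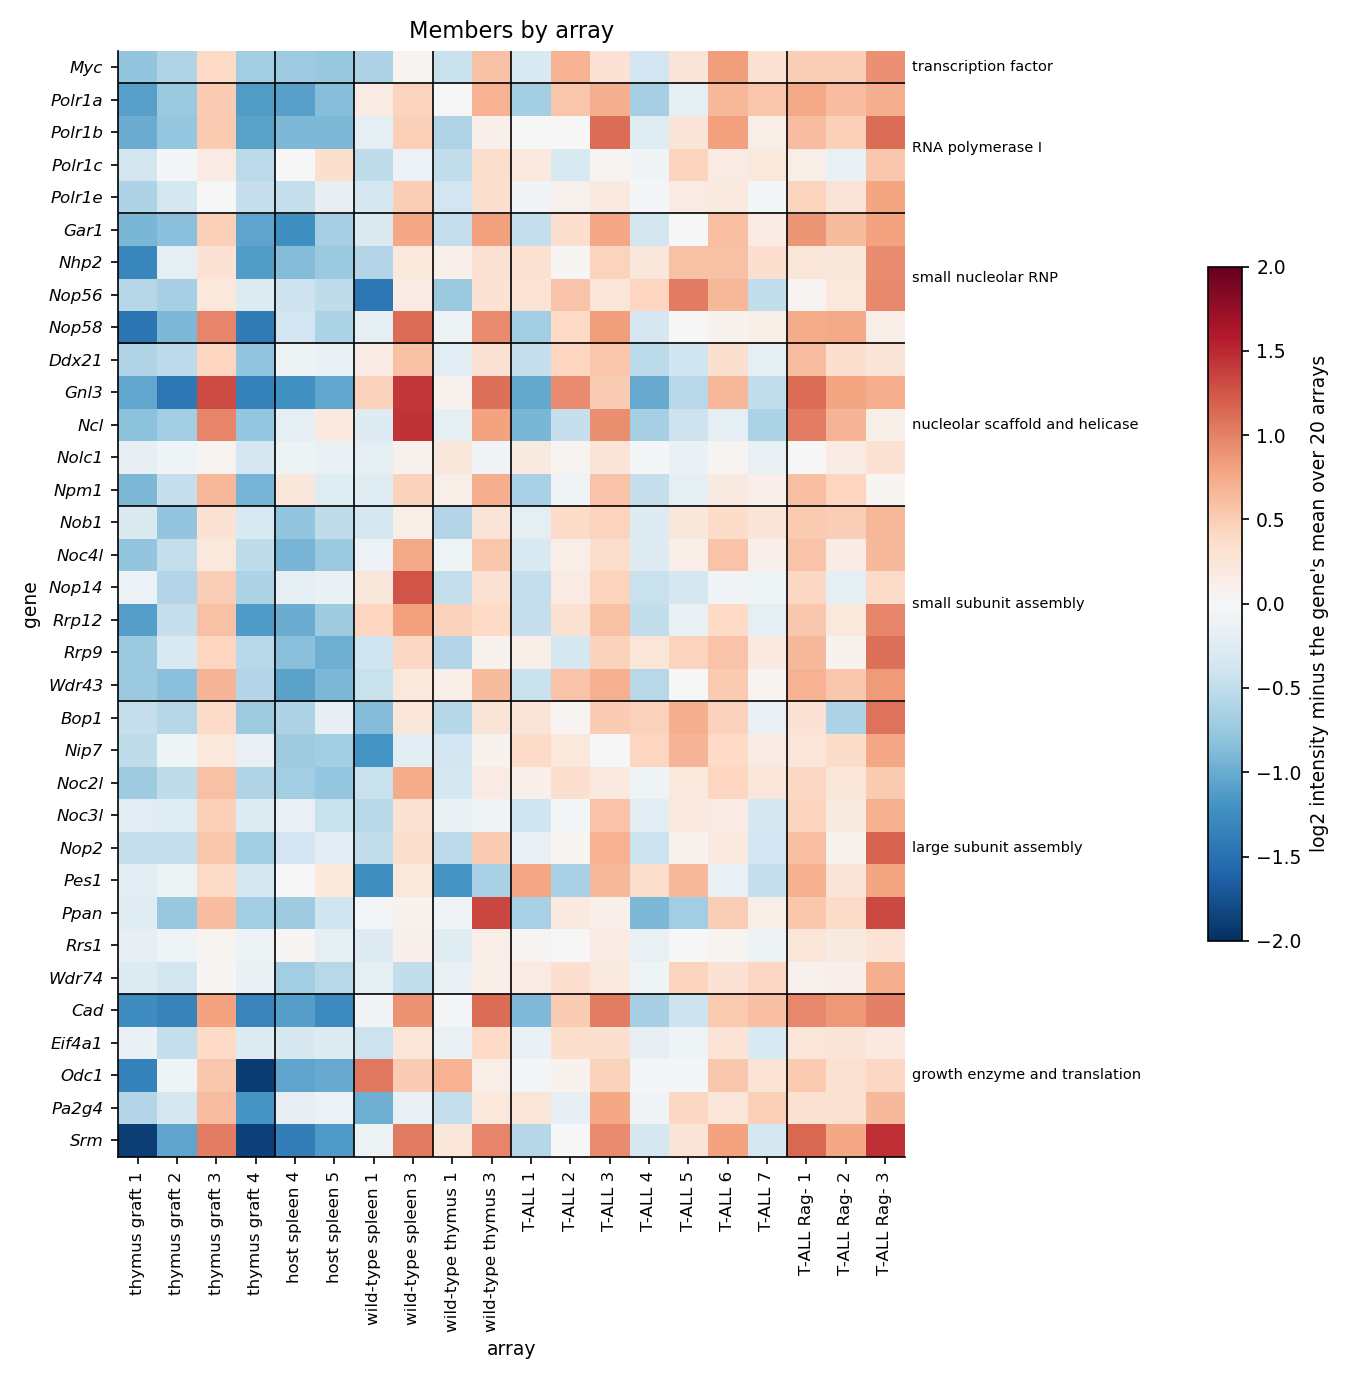
Log2 intensity of each tested member minus its own mean over the 20 arrays, with genes in rows ordered by role and arrays in columns ordered by label; red is above and blue below the gene's mean. Grafts 1, 2 and 4 and the host spleens are mostly blue, graft 3 and the T-ALL Rag- arrays mostly red, and Pes1 departs from the rest on wild-type thymus 1.

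T-ALL Rag- and T-ALL were also set against each other. Only T-ALL 7 shared chip 3 with the Rag- arrays, so label and chip can hardly be told apart here. The Rag- mean was higher for 33 of 34 members, with a median of 0.40 against 0.01 over all genes, and Bop1 was the exception at -0.08. The limma count was 0, against 0% of genes in either direction, and at an unadjusted p under 0.05 it was 2 higher, against 2.76% of genes, and 0 lower, against 2.4%. These were Ppan and Rrs1, and Rrs1 entered the test only through the Rag- arrays and T-ALL 3, so its direction was set by the filter. Rrs1 is also counted in the 33. The widest differences were in Srm (1.02, SE 0.51), Gnl3 (1.01, SE 0.54), Ppan (0.95, SE 0.37) and Ncl (0.94, SE 0.45), each with a limma adjusted p of 0.897. Myc differed by 0.39 (SE 0.31, limma adjusted p = 0.909). The Rag- arrays lay above all 7 T-ALL in Polr1e and Nob1, and in Rrs1 with the same limit, against 1.18% of genes. Some other contents differed in the same direction as against the grafts. In T-ALL Rag- 8 of 8 erythroid genes (median 0.98) and 10 of 10 macrophage genes (0.25) were higher, and 10 of 10 double-positive thymocyte genes lower (-0.54). Cell cycle genes were higher in 10 of 14 (0.12), TCR genes in 4 of 9 (-0.08) and B cell genes in 2 of 6 (-0.04). Granulocyte genes were lower in 8 of 10 (-0.22), whereas 7 of 10 were higher against the grafts. Limma called 0 genes in each list, and the part of these contents was not tested.

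Within T-ALL, arrays 1 and 4 had the lowest module means (10.05 and 10.02) and the lowest Myc (7.70 and 7.62). Their cell cycle means were also the lowest of the 7, 10.85 and 10.88, against 11.15 to 11.53 in the rest. Their erythroid means were 9.00 and 9.08, and T-ALL 5, with a module mean of 10.36, had 8.99. Not all members followed this order. Over the 7 T-ALL, Rrp12 and Gar1 correlated with the mean of the other members at r = 0.965 and 0.969, whereas Nip7, a large subunit factor, gave -0.435, Pes1 -0.191, Polr1c -0.076 and Nop56 0.112. Nop56 was highest on T-ALL 5, at 11.63, and Nip7 was also higher there (11.66) than on any other T-ALL. These values describe 7 arrays from 3 chips.

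The grafts were below wild-type thymus in 31 of 34 members, with a median of -0.32 against 0.01 over all genes, and none passed. The limma count was 0, against 0.0395% of genes in each direction. At an unadjusted p under 0.05 it was 5 lower, against 10.2% of genes, and 0 higher, against 10.1%. Without graft 3, 8 members were lower past the threshold, against 3.5% of genes, 0 were higher, against 5.16%, and the median was -0.62. They were Srm (-2.21), Gnl3 (-1.88), Cad (-1.84), Nop58 (-1.67), Odc1 (-1.53), Rrp12 (-1.33), Npm1 (-1.18) and Nhp2 (-1.08), with limma adjusted p from 0.0128 to 0.0421. These 8 differed against all 4 grafts by -1.55 to -0.79 (limma adjusted p from 0.186 to 0.318). In the same comparison without graft 3, limma called 8 of 10 macrophage genes (median -3.62), 4 of 14 cell cycle genes (-0.80) and 2 of 8 erythroid genes (-3.68) lower in the grafts, and 7 of 9 TCR genes (2.26) and 7 of 10 double-positive thymocyte genes (2.59) higher. All 10 granulocyte genes were lower (-3.87) with 0 called, and the part of these contents was not tested. For 20 members the 3 grafts lay wholly below both wild-type arrays, against 18.1% of genes. Myc differed by -0.77 (SE 0.36, limma adjusted p = 0.181). Pes1 went the other way, at 8.59, 8.72, 9.19 and 8.47 in the grafts and 7.64 and 8.17 in wild-type thymus, and did not pass (0.84, limma adjusted p = 0.277).

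These calls rested on few arrays. The counts in the next sentence have no share of all genes beside them. Without graft 3, they numbered 0 when graft 1 or graft 4 was also left out, 1 without wild-type thymus 1, 3 without wild-type thymus 3, and 0 when only the compared labels entered the fit. Wild-type thymus 1 was the granulocyte-rich array, its strain label differed from that of the grafts, and all wild-type arrays were on chip 4, so label, strain and chip cannot be told apart. T-ALL against wild-type thymus gave 17 members higher and 17 lower, a median of -0.01 against 0.02, and a limma count of 0, against 0.00789% of genes that rose and 0.0237% that fell. The median ran from -0.06 to 0.07 over the other scalings and filters, so it had no settled direction. At an unadjusted p under 0.05 limma counted 1 member higher, against 5.82% of genes, and 0 lower, against 8.31%. It was Pes1, at 1.08 (SE 0.39, limma adjusted p = 0.245). Myc differed by 0.17 there, and by -0.35 without wild-type thymus 1.

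The spleens, 2 arrays a label, are described without a test here. Host spleens were close to grafts 1 and 4 in Cad (8.30 and 8.13), Polr1b (8.04 and 8.05) and Gnl3 (10.84 and 11.01). They were above those grafts in Ncl (9.88 and 10.26) and Npm1 (14.12 and 13.66). Wild-type spleen 1, with a granulocyte mean of 14.34, had the highest Odc1 of the 20 arrays (13.15) and the lowest Nop56 (9.15), Bop1 (8.64), Pes1 (7.58) and Nip7 (9.79). Wild-type thymus 1, the other array with such a granulocyte mean (14.29), had Odc1 at 12.79 and Pes1 at 7.64. Wild-type spleen 3, with a double-positive thymocyte mean of 11.07, had the highest Ncl (11.50), Nop58 (13.01), Gnl3 (13.46) and Nop14 (9.75).

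Myc and the other members moved together across arrays. Pearson's r between Myc and the mean of the other members was 0.911 and Spearman's rho 0.854 over 20 arrays, 0.894 and 0.814 without the 2 farthest arrays (grafts 1 and 4), and 0.749 and 0.714 over the 7 T-ALL. On chip 4 alone (n = 6) r was 0.932. The arrays share labels, chips and a joint normalization, so these are descriptions. The cell cycle list correlated with the module mean almost as closely (r = 0.907, and 0.918 within T-ALL). Over 20 arrays the erythroid list gave 0.696, the macrophage list 0.419, the granulocyte list 0.236, the TCR list -0.194 (rho -0.644), the double-positive thymocyte list -0.522 and the B cell list -0.558. Within the 7 T-ALL they gave 0.803, 0.761, 0.652, -0.779, -0.732 and -0.394, beside 0.749 for Myc. Single members correlated with the mean of the others between 0.338 (Pes1) and 0.972 (Gar1), with a median of 0.836. No value over all genes is set beside these, so they do not tell the members apart from other genes. The 6 genes outside the list with levels most like the module mean over 20 arrays were Ipo4 (r = 0.969), Mcm10 (0.967), Lyar (0.962), Angptl4 (0.96), Josd1 (0.96) and Noa1 (0.958).

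**Figure D4:**
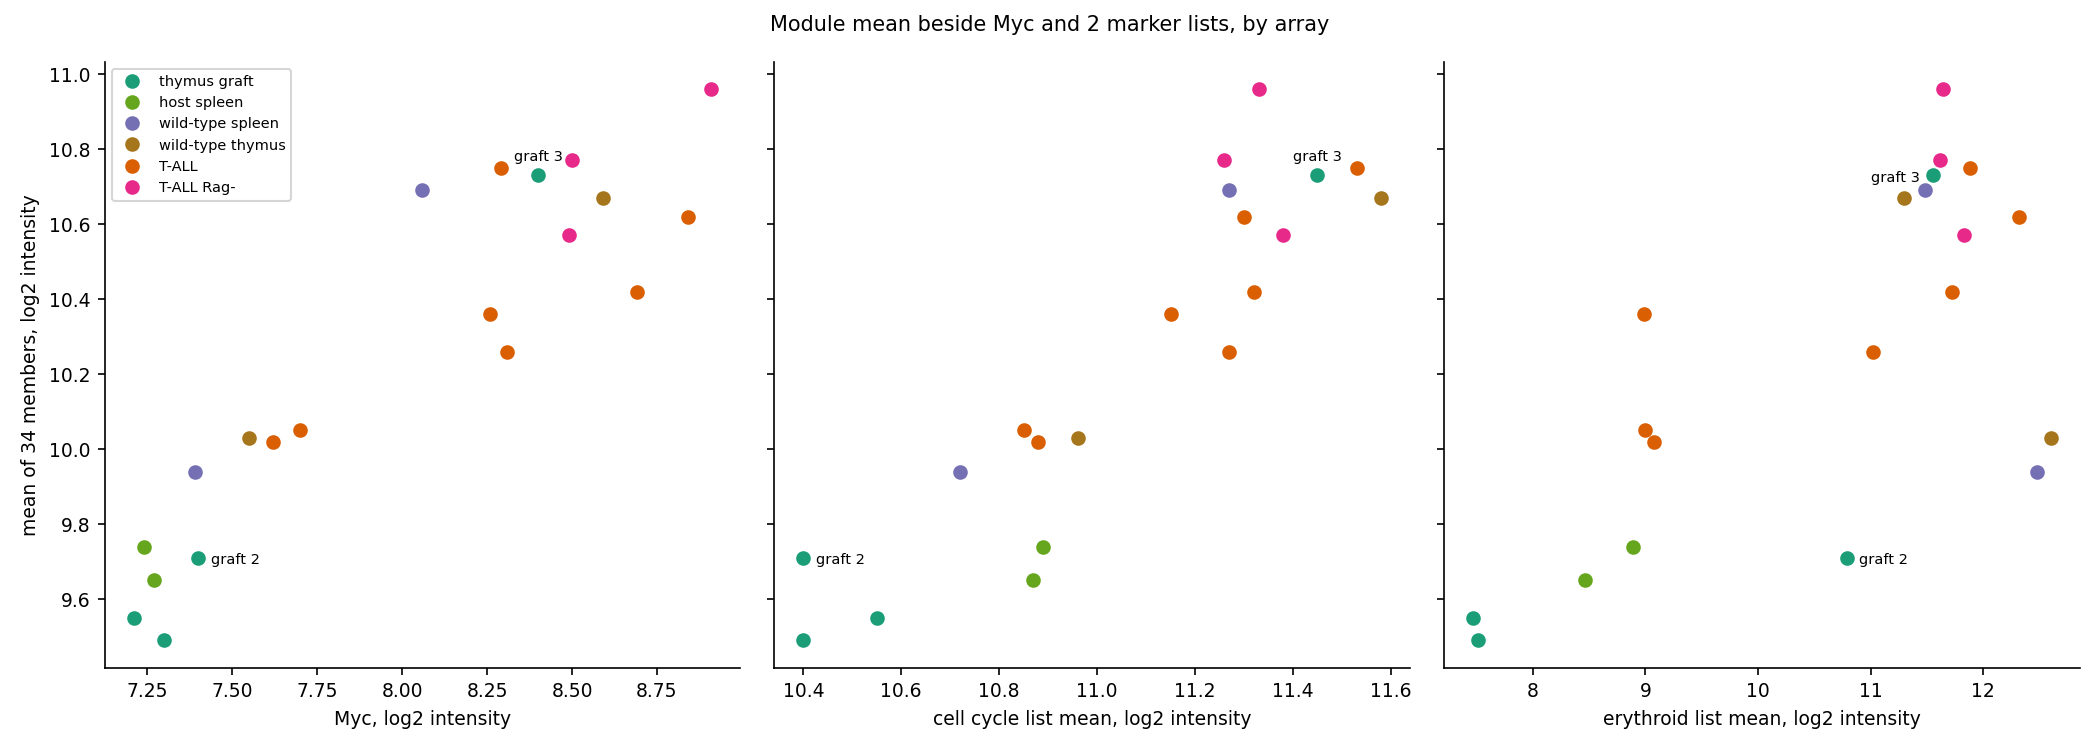
Module mean (vertical axis, log2 intensity) against Myc, the cell cycle list mean and the erythroid list mean (horizontal axes, log2 intensity), with 1 point per array coloured by label. Graft 3 lies with the T-ALL in each panel, and graft 2 has a high erythroid mean (10.79) with a low module mean (9.71).

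Other genes of the same pathways were counted in T-ALL against grafts from lists of general knowledge. With all 4 grafts, limma called 0 of 15 Myc network genes, 0 of 30 other small subunit genes, 0 of 28 other large subunit genes, 0 of 8 other RNA polymerase I genes, 0 of 21 other Myc target enzymes and chaperones and 0 of 19 translation factors. Without graft 3 the numbers higher were 1, 4, 4, 1, 13 and 4, with 0 lower, beside the 3.46% of all genes that rose. The enzymes had the largest median difference, 1.05, and included Gart of purine synthesis (1.29), Apex1 (1.24), C1qbp (1.31) and the mitochondrial ribosomal protein gene Mrpl12 (1.13). Among large subunit factors Mrto4 (1.52), Rrp1b (1.31), Brix1 (1.10) and Gnl2 (0.70) rose, and among small subunit factors Rcl1, Utp4, Pno1 and Heatr1 rose by 0.69 to 1.00. Mybbp1a, a nucleolar protein that binds Myb, rose by 1.21, and Ruvbl2, a helicase that binds Myc, by 1.07 (limma adjusted p = 0.0112 and 0.00223). The translation factors that rose were Eif2s2, Eif3b, Eif3d and Eif5a. The medians of the Myc network, at -0.19, and of the RNA polymerase I list, at -0.15, were below 0.

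Genes with more than 1 probe allowed a check of the measurement. Of the members' other probes, 13, belonging to 9 genes, were above background on all 20 arrays; each was higher in T-ALL than in grafts 1, 2 and 4, and their correlation with the brightest probe of the gene ran from 0.417 to 0.99 with a median of 0.893. A further 11 probes of 9 genes, among them the second probe of Myc, were above background on no array. The other 4 were above it on some arrays only. They differed less between T-ALL and grafts 1, 2 and 4 than the brightest probes of their genes. The differences were 0.13 for Nhp2 (14 arrays), 0.32 for Nop2 (19 arrays), 0.07 for Ppan (19 arrays) and -0.01 for Npm1 (1 array). The brightest probes gave 1.24, 0.55, 0.37 and 0.69.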

How the data were processed

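RNA from mice in vivo, from single cell suspensions or sorted cells, was labelled as biotinylated cRNA for Illumina arrays, per the labels. The deposited values used were log2 intensities, quantile normalized by the authors; scale and normalization were read from the values (20 arrays with a median of 6.95, a maximum of 15.19 and sorted values within 0.01). Neither the software nor its background step was named in the sources used here. The deposited table before normalization had 20 columns that matched no array label and was not used.

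Of 46089 probes, 35667 had 1 symbol and 10422 had none or several. Symbols were updated through a gene table (28519 by gene ID, 2634 by accession, 2122 by symbol, 2336 by synonym, 56 unmatched). The background threshold, 7.12 (139 in linear units), was 3 SD (0.113) above the mode, 6.78. A gene with a probe above it on at least 2 arrays was tested (12667 of 20255), with its brightest probe. A single limma model (version 3.58.1, R 4.3.3) gave each label a mean over the 20 arrays (intensity trend, 14 residual degrees of freedom, prior 3.13) with Benjamini-Hochberg adjustment over all genes in each of 5 comparisons. Differences without graft 3 come from the same fit on the remaining arrays, and errors after ± are SD. The number of arrays limits precision. The fit was tested on simulated data.

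Chips were read from the labels: chip 1 carried T-ALL 1 to 3 with grafts 1 and 2, chip 2 carried T-ALL 4 to 6 with grafts 3 and 4, chip 3 carried T-ALL 7 with the T-ALL Rag-, and chip 4 carried the rest. The members and lists were chosen with earlier results of these data known. Named genes were Myc and Mycn, called members, the 4 widest differences per comparison, up to 4 called genes per context list or its 2 brightest, and the 6 genes most like the module. Members named outside that rule were chosen after their values were seen. Alternatives were background subtraction with an offset of 16, centring each array on genes detected throughout, no or a stricter filter (6 arrays), chip as a block, only the compared labels and leaving out each array. Plots used matplotlib 3.10.9 (Python 3.11.15).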

Additional observations from a re-analysis of the deposited data

Results flagged for a closer look

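In groups of 4 to 10 arrays, 9 of 70 combinations of a label with a member or the module mean held an array far from the rest. Chance gives about 1 in 20 for independent values, and these are not independent, since members move together and share arrays. In 8 of them graft 3 was the high array, with Myc at 8.4, Ncl at 11.03, Cad at 10.21, Gnl3 at 13.35, Gar1 at 12.88, Wdr43 at 10.23, Noc2l at 11.83 and Noc3l at 8.6. The ninth was Ncl on T-ALL 3, at 10.99, above the 9.15 to 9.88 of the other T-ALL.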

How the results depend on the processing

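The direction of the members' median held for T-ALL (0.22 to 0.75) and T-ALL Rag- (0.63 to 1.00) against the grafts, for Rag- against T-ALL (0.24 to 0.47) and for grafts against wild-type thymus (-0.47 to -0.23) under the settings that kept every array or a whole chip. Against the grafts, the number of members called rested on graft 3. Leaving out 1 array gave 0 to 12 for T-ALL, 0 to 22 for T-ALL Rag- and 0 to 8 for grafts against wild-type thymus. The highest number was without graft 3 in each. In the same order, all genes called ranged from 2 to 1107, from 1 to 1125 and from 1 to 1438. With all arrays, chip as a random block gave 10 for T-ALL Rag-, but its estimated correlation was negative, -0.12. It was also negative without graft 3, at -0.113, which limits the random block counts below in the same way. Over the settings that left out no single array, all genes called for T-ALL Rag- ranged from 2 to 604. The alternatives that follow were added after the data had been seen and leave out graft 3. Their counts have no share of all genes beside them, so they do not tell the members apart from other genes. For T-ALL the number was 8 with chip as a fixed block, 11 with chip as a random block, 12 after background subtraction, 13 after centring, 12 with only the compared labels, and 0 to 16 when a further array was left out. For T-ALL Rag- it was 26 with the random block, 22 after background subtraction, 23 after centring, 27 with only the compared labels, 0 with the fixed block and 5 to 19 when a further array was left out. For grafts against wild-type thymus it was 10 with the random block, 9 after background subtraction, 10 after centring, 0 with only the compared labels and 0 to 6 when a further array was left out.

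The median for grafts against wild-type thymus was -0.62 without graft 3, -0.83 after background subtraction as well, and -0.02 to -0.99 when arrays were left out. Myc reversed in 2 cases, the cause of which was not tested. Leaving out 1 array gave -1.01 to 0.03 for grafts against wild-type thymus, with 0.03 without wild-type thymus 3, and -0.35 to 0.69 for T-ALL against wild-type thymus, with -0.35 without wild-type thymus 1. Background subtraction lowered module means, to 9.76, 9.70 and 9.97 in T-ALL 1, 4 and 7, 10.58 and 10.35 in T-ALL Rag- 1 and 2, and 9.29 and 9.36 in host spleens 4 and 5. All genes called ranged from 2 to 1107 for T-ALL against grafts when 1 array was left out. No paired analysis was possible because the compared labels share no replicate number that marks a common animal, batch or day. Nolc1 and Rrs1 lie at the edge of detection, where signal limits any difference. Myc was close to that edge in grafts 1, 2 and 4.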

Other observations

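Beyond the listed members, replication genes were also higher in T-ALL than in grafts 1, 2 and 4. Mcm2, Mcm3, Mcm5 and Mcm6, subunits of the helicase that opens DNA for replication, rose by 0.94, 1.12, 0.92 and 0.99 on the log2 scale (limma adjusted p = 0.0158, 0.0134, 0.00482 and 0.0143), and graft 3 was above the mean of grafts 1, 2 and 4 in each, at 12.33, 10.40, 13.68 and 12.88. In the opposite direction, Cd4, the coreceptor of helper and double-positive T cells, fell by 2.20, Rag2, which recombines receptor genes, by 1.60 and Cd1d1 by 1.45 (limma adjusted p = 0.00192, 0.0135 and 0.00483). Graft 3 was at 7.94 for Cd4, 7.81 for Rag2 and 9.50 for Cd1d1, beside T-ALL means of 7.73, 7.74 and 9.44. The haemoglobin genes Hbb-b1 and Hba-a1 rose by 3.60 and 3.43 (limma adjusted p = 0.0158 and 0.0172), with an SD of 3.37 and 3.15 among the 3 grafts. With all 4 grafts limma called 0 genes of these lists; Hbb-b1 and Hba-a1 then differed by 2.61 and 2.48 (limma adjusted p = 0.152 and 0.157) and Mcm5 by 0.59 (0.186).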
